A study of Mus musculus with 12 samples.

Results

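The fibroblast growth factor (FGF) pathway was described in the late fetal mouse urogenital sinus through 10 genes, chosen by name from the 56495 genes of the deposited expression table. They comprised the ligands Fgf7 and Fgf10, the receptors Fgfr1, Fgfr2 and Fgfr3, and the response genes Spry1, Spry2, Spry4, Dusp6 and Etv5. Each of the 10 names matched 1 row of the table, and all 10 passed the filter on low values that left 13904 genes to be tested.

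The values came from RNA sequencing of 12 whole-tissue libraries in 4 groups of 3. These were male and female embryos with the genotype Inv(Itga6-nsi)d11lac, which are referred to as mutants, and male and female wild type embryos, all at stage E18.5. The genotype's name gives an inversion that ends at Itga6, a gene of the chromosome that also holds the HoxD cluster. The nsi end, the d11lac allele, the number of mutant copies and the strain were not described in the sources used here. Per the labels, the bladder was removed and the proximal urethra was kept, as was the vagina in female samples. Whether replicates were separate embryos was not stated, so each p-value measures the spread between these libraries, which may be technical. Values below are FPKM, read fragments relative to gene length and library size, after division by a median-ratio factor for each library, called scaled FPKM.

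The sex labels were matched by Xist and Ddx3y. Xist, transcribed from the inactive X chromosome, lay at 5.51 to 9.93 scaled FPKM in mutant females and 8.76 to 10.5 in wild type females, and at no more than 0.241 in males. The Y-linked gene Ddx3y lay at 8.08 to 8.94 in mutant males, at 14.1 to 16.7 in wild type males, and at no more than 0.0722 in females. Hoxd13, a HoxD gene of the genital region, lay at 3.15 to 6.23 scaled FPKM in the 6 mutant libraries, against 15.1 to 20.5 in the 6 wild type libraries. Relative sequencing depth was 0.582 to 0.717 in mutant libraries and 0.812 to 1 in wild type libraries, with no overlap. All 9 listed markers of urogenital sinus epithelium and all 9 of urogenital mesenchyme passed the filter. Of the 3 listed kidney and bladder neighbour markers, Umod was listed at 0 in every library and Nphs1 at no more than 0.00993 scaled FPKM. Six2, a marker of kidney progenitors, lay at 1.10 to 3.30 in the 6 mutant libraries, against 0.721 to 1.497 in the 6 wild type libraries. Six2 was called higher in mutants over both sexes (log2 change 0.54, adjusted p = 0.0442).

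FGF ligands bind receptor tyrosine kinases at the cell surface with the help of heparan sulphate, and the activated receptor signals through the RAS and ERK kinases. In the urogenital sinus, mesenchymal Fgf7 and Fgf10 act on the epithelial splice form of Fgfr2, and Fgf10 is needed for prostate bud growth. The signal switches on transcription factors of the Etv family, and it also switches on its own inhibitors, among them the Sprouty proteins and the ERK phosphatase Dusp6.

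Promoter windows from 250 bases before to 50 bases after the annotated start were taken from RefSeq for the 8 of 10 genes that matched, as 10 windows on GRCm38.p6. Those of both ligands are shown because the ratio of Fgf10 to Fgf7 lay highest in mutant males, though no test of that ratio passed. Those of Dusp6 and Etv5 are shown because these response genes were called in different comparisons. Capitals mark CAATAAA or its reverse complement TTTATTG, letters bound by the posterior HOX proteins. The search for these letters and for the ETS letters CCGGAA or TTCCGG ran on both strands. Shorter forms of the ETS motif were not searched.
Fgf7, plus strand, chr2:126034408-126034707: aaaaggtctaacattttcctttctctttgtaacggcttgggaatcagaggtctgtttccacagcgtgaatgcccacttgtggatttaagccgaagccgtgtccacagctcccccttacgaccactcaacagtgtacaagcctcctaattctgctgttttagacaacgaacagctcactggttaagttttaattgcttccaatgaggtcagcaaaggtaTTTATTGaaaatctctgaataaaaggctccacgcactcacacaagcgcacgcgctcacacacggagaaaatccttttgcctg
Fgf10, plus strand, chr13:118714449-118714748: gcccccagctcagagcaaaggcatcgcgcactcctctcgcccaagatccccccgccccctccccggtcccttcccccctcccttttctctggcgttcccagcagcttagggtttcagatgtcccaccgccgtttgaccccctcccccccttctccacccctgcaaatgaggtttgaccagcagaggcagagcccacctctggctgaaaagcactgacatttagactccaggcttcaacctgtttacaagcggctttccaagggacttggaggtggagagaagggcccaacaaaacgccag
Dusp6, plus strand, chr10:99262981-99263280: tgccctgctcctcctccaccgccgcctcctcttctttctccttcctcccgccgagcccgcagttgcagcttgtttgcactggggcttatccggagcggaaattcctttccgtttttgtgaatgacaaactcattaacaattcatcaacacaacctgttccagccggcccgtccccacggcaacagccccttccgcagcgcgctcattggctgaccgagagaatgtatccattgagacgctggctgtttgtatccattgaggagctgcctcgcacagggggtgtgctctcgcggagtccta
Etv5, minus strand, chr16:22439521-22439820: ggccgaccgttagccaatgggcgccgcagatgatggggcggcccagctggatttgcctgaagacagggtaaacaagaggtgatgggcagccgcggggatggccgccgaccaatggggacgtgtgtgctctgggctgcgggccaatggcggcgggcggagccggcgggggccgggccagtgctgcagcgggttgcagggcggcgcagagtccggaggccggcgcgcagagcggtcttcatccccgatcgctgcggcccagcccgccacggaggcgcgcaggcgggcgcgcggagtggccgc
Among these 4 windows, the Fgf7 window held TTTATTG, 32 bases before the start, and the other 3 held neither the HOX nor the ETS letters searched. Over all 10 windows, the HOX letters were found in 2, those of Fgf7 and of 1 Fgfr3 start, against 4.60% of 32851 promoters. The ETS letters were found in 1 of the 10, that of Spry2, against 14.9% of promoters.

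Level set the receptors apart from the ligands in every group. Fgfr1 and Fgfr2 averaged 45.3 and 48.5 scaled FPKM over the 12 libraries, above 92.5% and 93.2% of tested genes. Spry2 at 18.4 and Dusp6 at 16.8 came next, followed by Spry1 at 11.6, Fgfr3 at 8.87 and Etv5 at 8.48. The lowest levels were those of Spry4 at 3.87, Fgf10 at 2.95 and Fgf7 at 2.19 scaled FPKM, against a median of 7.68 over all tested genes.

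The order changed little between groups, and several neighbours in it overlapped. Fgfr2 averaged 59.0 scaled FPKM and Fgfr1 55.2 in mutant males with overlapping libraries, while in wild type males Fgfr2 at 49.9 lay above Fgfr1 at 39.0 without overlap. In mutant females Fgfr1 at 50.02 and Fgfr2 at 48.3 overlapped, as did Fgfr1 at 36.8 and Fgfr2 at 36.7 in wild type females. Dusp6 and Spry2 overlapped in males of both genotypes, whereas Spry2 lay above Dusp6 without overlap in both female groups. Fgf10 lay above Fgf7 without overlap in mutant males, and the ligands overlapped in the other 3 groups.

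**Figure D1:**
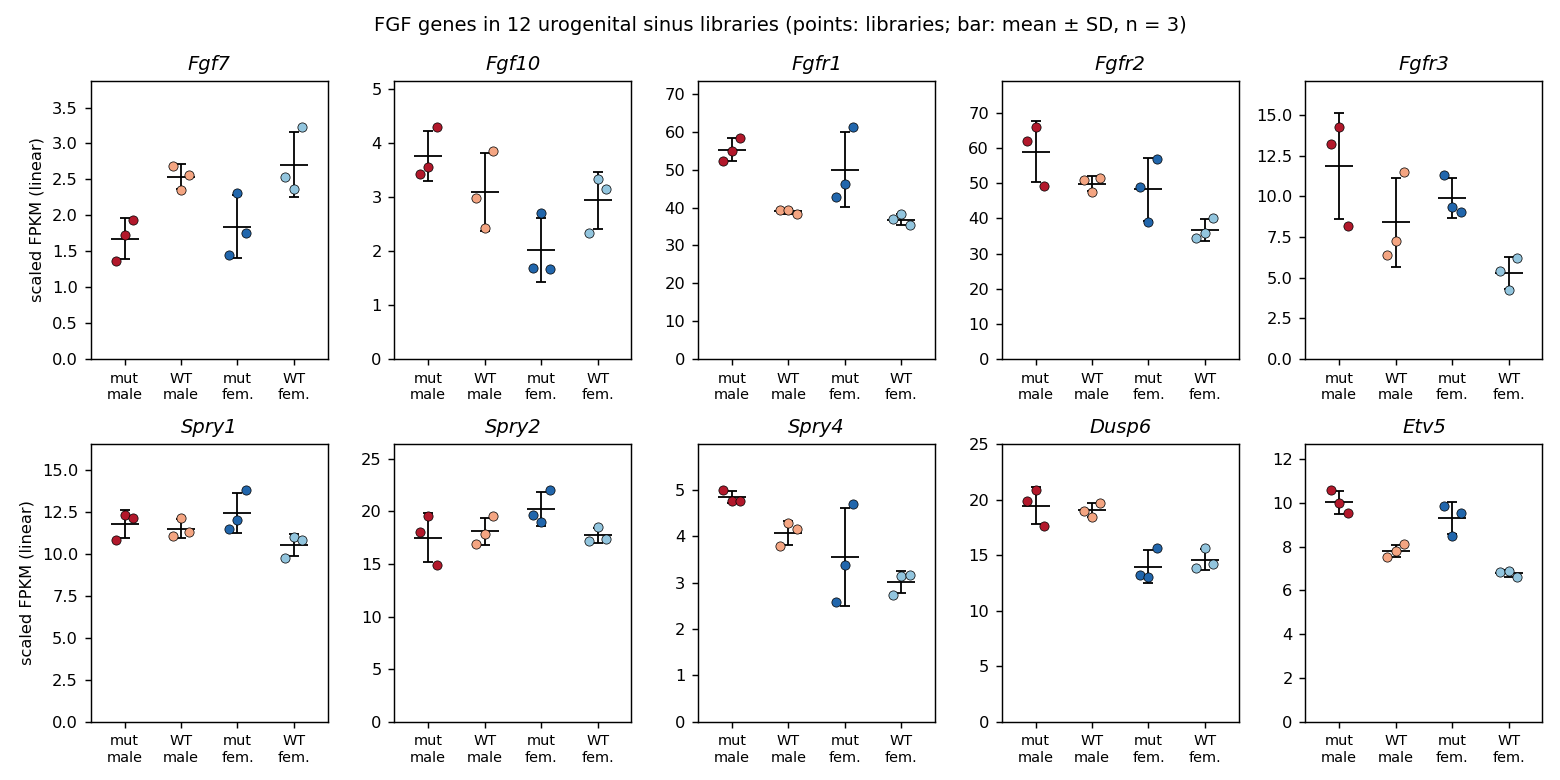
Scaled FPKM (linear axes from 0) of the 10 FGF genes in mutant males, wild type males, mutant females and wild type females, with a point per library and a bar for the mean ± SD (n = 3). Fgfr1 and Etv5 lay higher and Fgf7 lower in all 6 mutant libraries than in all 6 wild type libraries, whereas Dusp6 lay higher in all 6 male than in all 6 female libraries. The share of all tested genes that separated 6 against 6 libraries was not counted.

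The first question was how the FGF genes differed between mutant and wild type tissue. Over both sexes, 4 of the 10 rose in mutants, namely Fgfr1, Fgfr2, Fgfr3 and Etv5, and Fgf7 fell. This was 5 of 10 called at a limma adjusted p under 0.05, against 40.6% of all 13904 tested genes (18.9% rising and 21.6% falling), so the share of FGF genes lay near the background. In males 2 of 10 were called, against 20.3% of all genes, and in females 3 of 10, against 28.0%. These calls within a sex were all rises, which made up 8.64% of all genes in males and 12.1% in females, and the direction depended on how libraries were scaled, as given below. The median log2 change of the 10 genes was 0.16 over both sexes, against 0.00 over all tested genes, and 0.23 in males and 0.21 in females. In whole tissue, more cells of a type and more RNA per cell cannot be told apart.

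Fgf7 (ENSMUSG00000027208, chromosome 2, 125876578 to 125933105 in mm39) is a mesenchymal ligand and lies on the same chromosome as Itga6. It stood at 1.37, 1.72 and 1.93 scaled FPKM in mutant males, against 2.69, 2.35 and 2.56 in wild type males. In mutant females it stood at 1.45, 2.31 and 1.76, against 2.53, 2.36 and 3.22 in wild type females. Every mutant library lay below every wild type library, although mutant female 2 came close to the lowest wild type value. Within a sex, this held for 22.4% of all tested genes in males and 22.2% in females. Over both sexes Fgf7 fell by 0.48 on the log2 scale (SE 0.11, adjusted p = 0.00664). The log2 changes were -0.49 in males (adjusted p = 0.0523) and -0.46 in females (adjusted p = 0.0526), and neither was called. With genes adjusted for GC content and length, the value over both sexes became 0.04 (adjusted p = 0.835), as set out below, while adjusted p ranged from 0.00150 to 0.835 over the alternatives. Leaving out mutant male 3, mutant female 1 or mutant female 2 brought a call in males (adjusted p 0.0296 to 0.0487), and leaving out mutant female 2 brought a call in females (adjusted p = 0.0191). Fgf7 was also called in both sexes with equal library sums and with no intensity trend, and in males with FPKM as deposited, with only the groups compared and with libraries weighted by quality.

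Fgf10 (ENSMUSG00000021732, chromosome 13, 118851235 to 118928651), the ligand tied to prostate budding, showed no genotype call. In mutant males it stood at 3.42, 3.55 and 4.28 scaled FPKM, against 2.98, 2.42 and 3.85 in wild type males. Mutant females had 1.68, 2.698 and 1.67, against 2.34, 3.32 and 3.14 in wild type females. The groups overlapped in both sexes, and the log2 changes had opposite signs, 0.26 in males (adjusted p = 0.371) and -0.46 in females (adjusted p = 0.0958). Leaving out mutant female 2, the highest of its group, brought a call in females (adjusted p = 0.0258), as did scaling to equal library sums (-0.65, adjusted p = 0.0175). The difference between the mutant effects, males minus females, was 0.72 (SE 0.27, adjusted p = 0.545) and did not pass.

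Among the receptors, Fgfr1 (ENSMUSG00000031565, chromosome 8, 26003670 to 26065734), which is widely expressed in mesenchyme, was called in both sexes. It stood at 52.4, 54.9 and 58.4 scaled FPKM in mutant males, against 39.3, 39.4 and 38.3 in wild type males. In mutant females it stood at 42.8, 46.1 and 61.2, against 37.0, 38.2 and 35.3 in wild type females. All 6 mutant libraries lay above all 6 wild type libraries, and mutant female 3 was the highest. Within a sex, every mutant library lay above every wild type library for 21.1% of all tested genes in males and 20.4% in females. The log2 change was 0.50 in males (SE 0.11, adjusted p = 0.0116), 0.42 in females (SE 0.11, adjusted p = 0.0168) and 0.46 over both sexes (SE 0.08, adjusted p = 0.000976), a 1.37-fold level. Without wild type female 3 the call in females was lost (adjusted p = 0.0596).

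Fgfr2 (ENSMUSG00000030849, chromosome 7, 129764181 to 129867993) encodes the receptor for both ligands in its epithelial splice form, and gene-level values did not separate its splice forms. It stood at 62.0, 65.9 and 49.2 scaled FPKM in mutant males, against 50.8, 47.4 and 51.5 in wild type males. Mutant females had 48.8, 39.0 and 57.0, against 34.3, 35.7 and 40.1 in wild type females. Single libraries made the genotypes overlap, mutant male 3 in males and mutant female 2 in females. The log2 change was 0.30 over both sexes (SE 0.10, adjusted p = 0.0287). It was 0.23 in males (adjusted p = 0.264) and 0.38 in females (adjusted p = 0.0632), neither of them called. The call over both sexes was lost without any 1 of mutant male 1, mutant male 2, wild type male 1, wild type male 2, mutant female 3, wild type female 1 or wild type female 2 (adjusted p 0.0519 to 0.0694), and also with no filter on low values. Females passed without mutant male 3 (adjusted p = 0.0436) or mutant female 2 (adjusted p = 0.0130).

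Fgfr3 (ENSMUSG00000054252, chromosome 5, 33879018 to 33894412), a receptor of the same family found in urothelium, was called in females and over both sexes. It stood at 13.2, 14.2 and 8.15 scaled FPKM in mutant males, against 6.42, 7.27 and 11.5 in wild type males. In mutant females it stood at 11.3, 9.37 and 9.05, against 5.42, 4.24 and 6.19 in wild type females. The male groups overlapped through mutant male 3 and wild type male 3, while the female groups did not overlap. The log2 change was 0.86 in females (SE 0.24, adjusted p = 0.0204) and 0.67 over both sexes (SE 0.17, adjusted p = 0.00842), while 0.48 in males was not called (adjusted p = 0.174). The call in females was lost without mutant female 1, wild type female 1 or wild type female 2 (adjusted p 0.0534 to 0.0770), and also with no filter on low values.

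Of the response genes, Etv5 (ENSMUSG00000013089, chromosome 16, 22200059 to 22258469), an ETS transcription factor switched on by FGF signalling, was the only one called between genotypes. It stood at 10.6, 9.97 and 9.52 scaled FPKM in mutant males, against 7.52, 7.78 and 8.10 in wild type males. In mutant females it stood at 9.88, 8.48 and 9.54, against 6.86, 6.88 and 6.61 in wild type females. All 6 mutant libraries lay above all 6 wild type libraries. Within a sex, 21.1% of all tested genes separated in this direction in males and 20.4% in females. The log2 change was 0.34 in males (SE 0.08, adjusted p = 0.0116), 0.43 in females (SE 0.08, adjusted p = 0.00271) and 0.38 over both sexes (SE 0.05, adjusted p = 0.000331), a 1.30-fold level. Omitting mutant male 1 or wild type male 1 ended the call in males (adjusted p = 0.0545 and 0.0551).

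The feedback inhibitors did not pass in any genotype comparison. Dusp6 (ENSMUSG00000019960, chromosome 10, 99099093 to 99103351), the phosphatase that inactivates ERK, stood at 19.9, 20.9 and 17.6 scaled FPKM in mutant males, against 19.0, 18.49 and 19.7 in wild type males. In mutant females it stood at 13.3, 13.0 and 15.6, against 13.9, 15.7 and 14.2 in wild type females. The genotypes overlapped in both sexes, and the log2 change over both sexes was -0.02 with a 95% interval from -0.16 to 0.12. Spry1, Spry2 and Spry4 encode Sprouty proteins, which damp receptor signalling to ERK. Over both sexes their log2 changes were 0.13 for Spry1 (95% interval -0.01 to 0.27), 0.07 for Spry2 (-0.09 to 0.22) and 0.20 for Spry4 (-0.04 to 0.44).

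Spry1 (ENSMUSG00000037211, chromosome 3, 37694096 to 37698747) averaged 11.8 ± 0.824 scaled FPKM in mutant males and 11.5 ± 0.570 in wild type males, and 12.4 ± 1.21 in mutant females and 10.5 ± 0.676 in wild type females (SD, n = 3). Spry2 (ENSMUSG00000022114, chromosome 14, 106129381 to 106134253) averaged 17.5 ± 2.35 in mutant males and 18.1 ± 1.31 in wild type males, and 20.2 ± 1.58 in mutant females and 17.7 ± 0.724 in wild type females. In females neither gene overlapped between genotypes, as was the case for 20.4% of tested genes in the same direction, and in males both overlapped. Leaving out mutant female 1 brought a call for Spry1 in females (adjusted p = 0.0410), where all libraries gave 0.23 (adjusted p = 0.0760).

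Spry4 (ENSMUSG00000024427, chromosome 18, 38719300 to 38734468) stood at 4.996, 4.76 and 4.77 scaled FPKM in mutant males, against 3.79, 4.29 and 4.15 in wild type males. Mutant females had 2.58, 3.39 and 4.69, against 2.74, 3.14 and 3.16 in wild type females. The male genotypes did not overlap, whereas mutant females lay on both sides of the wild type females. Without mutant female 1 the change over both sexes was called (adjusted p = 0.0166), against an adjusted p of 0.170 with all libraries.

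**Figure D2:**
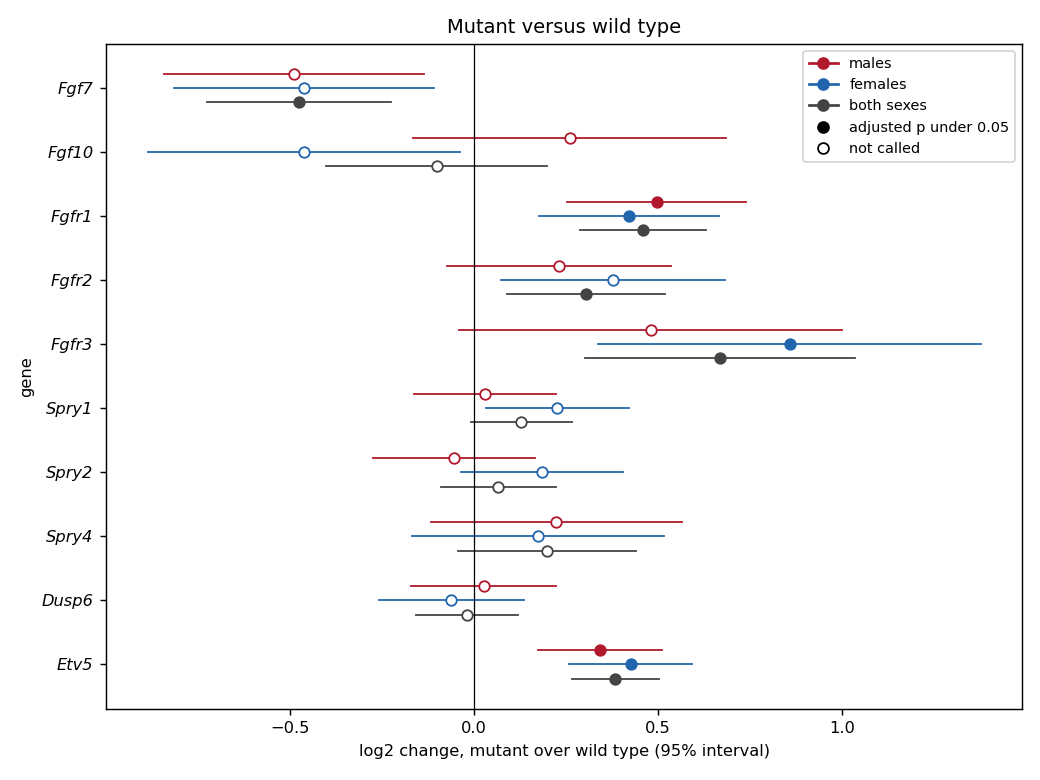
Log2 change of each FGF gene, mutant over wild type, with its 95% interval in males, females and over both sexes, from the limma fit (filled points, adjusted p under 0.05). Etv5 and Fgfr1 were called in all 3 comparisons and Dusp6 lay near 0 in each, while Fgf10 had opposite signs in males and females.

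In males 3 FGF genes lay higher in every mutant library than in every wild type library (Etv5, Fgfr1 and Spry4), against 21.1% of tested genes, and Fgf7 lay lower, against 22.4%. In females 5 lay higher (Etv5, Fgfr1, Fgfr3, Spry1 and Spry2), against 20.4%, and again Fgf7 lay lower, against 22.2%. How many of all genes separated the mutant from the wild type libraries of both sexes together was not counted. The genotype effect did not pass as different between the sexes for any of the 10 genes, nor for any of the 13904 genes tested with limma. At an unadjusted p under 0.05 the difference counted 1 of the 10, Fgf10, and 1225 of all genes.

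The genotype changes went with GC content, the share of G and C bases in a transcript, across all genes. Over both sexes the median log2 change, mutant over wild type, was -0.36 in the lowest of 5 equal GC classes (31.2% to 45.5%) and 0.25 in the highest (56.2% to 76.3%). Fgf7 at 40.8% GC and Fgf10 at 41.7% lay in the lowest class, while Spry1 at 56.3% and Fgfr3 at 58.4% lay in the highest and Fgfr1 at 56.0% just below it. Etv5 had 53.3% GC, Fgfr2 51.6%, Spry4 51.2%, Dusp6 49.4% and Spry2 46.2%. What produced this trend was not tested.

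With each library adjusted for GC content and transcript length, Etv5 was still called over both sexes (log2 change 0.29, adjusted p = 0.00502) and in females (0.32, adjusted p = 0.0307), but not in males (0.26, adjusted p = 0.0713). Over both sexes the receptors were no longer called, with 0.26 for Fgfr1 (adjusted p = 0.0516), 0.25 for Fgfr2 (adjusted p = 0.104) and 0.41 for Fgfr3 (adjusted p = 0.127), nor were Fgfr1 and Fgfr3 within a sex. Fgf7 came to 0.04, and Spry2 to 0.25 with a call (adjusted p = 0.0477). Over all alternatives, the adjusted p over both sexes ran from 6.85e-05 to 0.122 for Etv5, from 8.33e-05 to 0.0641 for Fgfr1, from 0.000575 to 0.168 for Fgfr3, from 0.00566 to 0.440 for Fgfr2 and from 0.0477 to 0.805 for Spry2. With FPKM as deposited, which moved the median of all genes by -0.11 over both sexes, the 4 rises lost their calls and the fall of Fgf7 was still called (-0.58, adjusted p = 0.00421). Scaling to equal library sums moved that median by -0.15 and kept the calls of Etv5, Fgfr1, Fgfr3 and Fgf7, with that of Fgfr2 lost. Library sums ran from 276713 to 401093 FPKM. They included Rn7sk, at 0 to 55059 scaled FPKM in mutant males, 0 to 42660 in wild type males and 0 in females. The part of Rn7sk in that scaling was not tested. Within a sex, all 5 rises lost their calls with FPKM as deposited. With equal library sums, Etv5 lost its call in both sexes and Fgfr1 and Fgfr3 lost theirs in females, and the fit of only the female groups also lost Fgfr1. The FGF calls within a sex then ran the other way in part. With equal library sums, 0 FGF genes rose and 2 fell in females (Fgf7 and Fgf10), while 1 rose (Fgfr1) and 1 fell (Fgf7) in males, and with FPKM as deposited 0 rose and 1 fell in males (Fgf7). Over all genes, equal library sums gave 320 rises and 4038 falls in females, 444 and 1992 in males, and 824 and 4617 with the sexes combined. FPKM as deposited gave 231 and 1435 in females, 121 and 1229 in males, and 552 and 2872 with the sexes combined. Those scalings moved the median of all genes in females by -0.21 and -0.08, and in males by -0.09 and -0.14. Quality weights added calls for Fgfr2 (higher), Fgfr3 (higher) and Fgf7 (lower) in males and for Spry4 (higher) over both sexes.

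**Figure D3:**
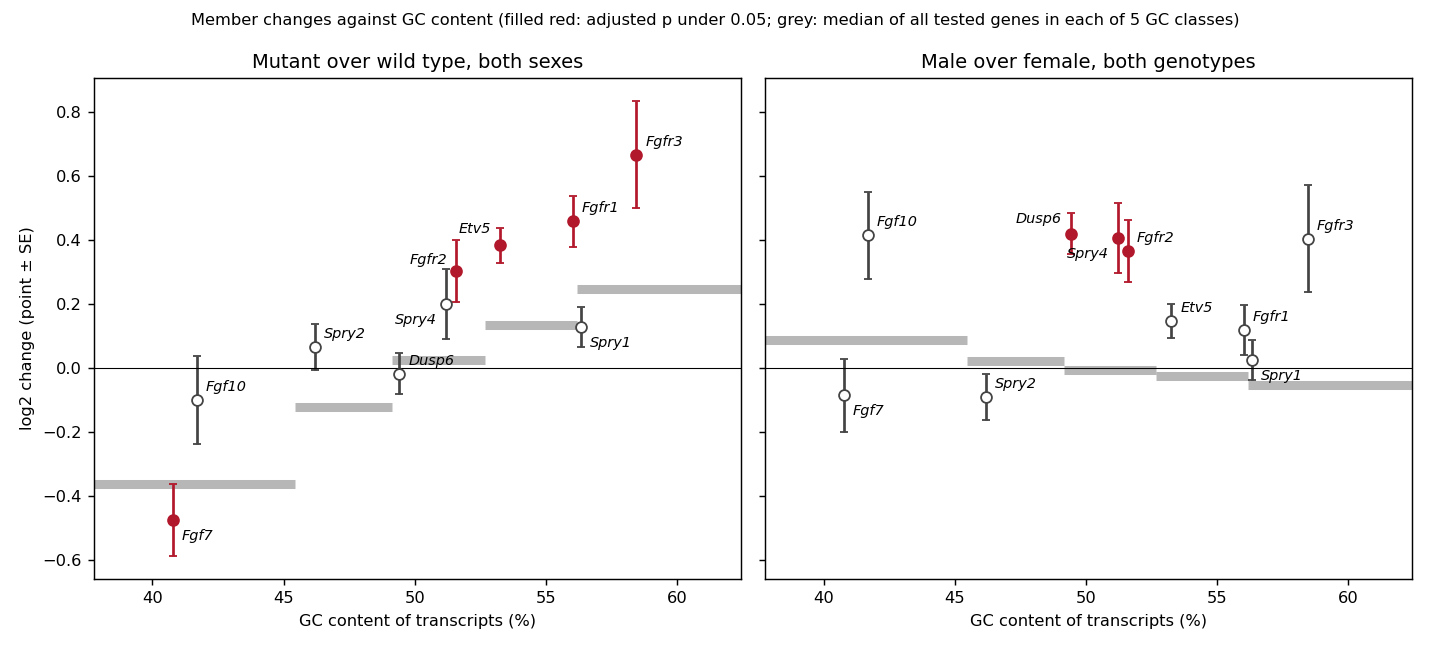
Log2 change (± SE) of the 10 FGF genes against the GC content of their transcripts in percent, for mutant over wild type over both sexes (left) and male over female over both genotypes (right), with grey bars for the median of all tested genes in each of 5 GC classes. The grey medians climbed from -0.36 to 0.25 on the left and ran between 0.09 and -0.05 on the right, and on the left 7 of the 10 lay above the bar of their class, with Fgf7, Dusp6 and Spry1 below it.

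Markers of several cell types moved with genotype under median-ratio scaling. The marker lists were not run under the other scalings or with the GC and length adjustment. Whether their calls depend on those settings was not tested. Over both sexes 5 of the 9 listed epithelial markers rose and 0 fell, with summed levels of 217 to 370 scaled FPKM in mutant males against 201 to 248 in wild type males, with 230 to 478 in mutant females against 159 to 268 in wild type females. Of the 9 mesenchymal markers 0 rose and 1 fell, which was Hoxd13, with summed levels of 1008 to 1551 in mutant males against 1069 to 1129 in wild type males, with 912 to 1665 in mutant females against 1148 to 1248 in wild type females. The epithelial rises were those of Krt5, Cdh1, Foxa2, Foxa1 and Trp63, while the urothelial genes Upk1b and Upk3a gave -0.38 and -0.11 with no call. Of the remaining lists, 4 of 6 skeletal muscle, 1 of 4 endothelial, 2 of 4 immune, 2 of 5 neural and 3 of 4 proliferation markers fell, 1 of 5 blood markers rose, and 0 of 5 smooth muscle markers were called. Of all tested genes, 21.6% fell and 18.9% rose over both sexes. Within a sex, 4 of 6 skeletal muscle markers fell in males and 0 in females. Of the 4 proliferation markers, 1 rose in males and 3 fell in females. Of all 13904 tested genes, 1202 rose and 1618 fell in males, and 1687 rose and 2208 fell in females. Mki67 rose in males (0.30, adjusted p = 0.0320) and fell in females (-0.43, adjusted p = 0.00470). Summed skeletal muscle markers lay at 244 to 349 scaled FPKM in mutant males against 426 to 606 in wild type males, and summed neural markers at 97.8 to 128 against 168 to 188. In females the skeletal muscle sums overlapped, at 259 to 328 in mutants against 284 to 372 in wild type. Mutant females varied widely, with summed neural markers at 12.6 to 146, against 109 to 138 in wild type females, and Pdgfra at 52.2 to 178, against 127 to 143. The part of these markers in the changes of the FGF genes was not tested.

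Beyond the 10 genes, 60 further pathway genes were listed, and 45 passed the filter. Of these, 12 rose and 8 fell over both sexes, 5 rose and 4 fell in males, and 8 rose and 5 fell in females, with a median log2 change over both sexes of 0.01. The called share was 44.4% over both sexes, against 40.6% of all genes. In females it was 28.9%, against 28.0%, and in males 20%, against 20.3%, so each lay near the background. All 7 intracellular adaptors, which link the receptors to RAS, went without a call in the genotype comparisons. Of the 12 further response and feedback genes, 4 rose and 2 fell over both sexes. Spred2 and Spred1 encode related inhibitors of RAS signalling, and Spred2 rose by 0.51 (adjusted p = 0.000456) while Spred1 fell by 0.47 (adjusted p = 0.000865). Lrig3, a membrane protein that modulates receptors, rose by 0.42 (adjusted p = 0.00356).

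Heparan sulphate genes split in direction, with 4 of 14 rising and 4 falling over both sexes. Sdc1 and Gpc1, which encode proteins that carry heparan sulphate on the cell surface, rose by 0.52 (adjusted p = 0.000737) and 0.35 (adjusted p = 0.00161). The enzymes Hs6st2, a sulphotransferase, and Glce, an epimerase, fell by 0.51 (adjusted p = 0.000707) and 0.43 (adjusted p = 0.000267), and the cell-surface protein Gpc3 fell by 0.35 (adjusted p = 0.0275). Both splicing regulators of the epithelial Fgfr2 form rose, Esrp2 by 0.61 (adjusted p = 0.00975) and Esrp1 by 0.46 (adjusted p = 0.0448). Among 8 tested further ligands, Fgf14 and Fgf13, intracellular members of the family that do not act as secreted ligands, fell by 0.60 (adjusted p = 0.00353) and 0.48 (adjusted p = 0.0314).

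With the adjustment for GC content and length, 3 of the 45 pathway genes rose over both sexes (Spred2, Lrig3 and Sdc1) and 3 fell (Hs6st2, Glce and Hs2st1). Calls of Fgf13, Gpc3 and Esrp1 over both sexes were lost when single libraries were left out, 8 different ones for Fgf13, 5 for Gpc3 and 7 for Esrp1. With FPKM as deposited 1 pathway gene rose and 9 fell over both sexes, and with equal library sums 4 rose and 12 fell.

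The second question was how the FGF genes differed between the sexes, since prostate buds form in males. Dusp6 was called within each genotype and Fgf10 within mutants. That was 2 of 10 genes in mutants, against 7.49% of all tested genes (3.98% higher in males), and 1 of 10 in wild type, against 3.18% (1.95% higher in males). The median log2 difference, male over female, of the 10 genes was 0.19 in mutants and 0.16 in wild type, against 0.02 and 0.01 over all tested genes. A comparison over both genotypes, added after the data were seen, called 3 of the 10 (Dusp6, Spry4 and Fgfr2), all higher in males, against 13.5% of all genes (7.50% higher in males). Every male library lay above every female library for 3 of the 10 genes in mutants (Dusp6, Fgf10 and Spry4), against 13.1% of tested genes, and for 7 in wild type (those called over both genotypes with Etv5, Fgfr1, Fgfr3 and Spry1), against 17.3%.

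Dusp6 stood between 17.6 and 20.9 scaled FPKM in the 6 male libraries and between 13.0 and 15.7 in the 6 female libraries, without overlap. Within a genotype, all males lay above all females for 13.1% of tested genes in mutants and 17.3% in wild type. Its log2 difference, male over female, was 0.46 in mutants (SE 0.09, adjusted p = 0.0122), 0.38 in wild type (SE 0.09, adjusted p = 0.0470) and 0.42 over both genotypes (SE 0.06, adjusted p = 0.00163). The call over both genotypes was kept without each library in turn and under every other alternative, with adjusted p from 0.000199 to 0.0433. The call in mutants was lost with FPKM as deposited (adjusted p = 0.216) and with only the groups compared in the fit, over a range of 0.00485 to 0.216. The call in wild type was fragile, being lost without mutant male 1, mutant male 2, or any 1 of the 6 wild type libraries (adjusted p 0.0562 to 0.192) and under 8 other alternatives.

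Spry4 was higher in males over both genotypes, by 0.41 on the log2 scale (SE 0.11, adjusted p = 0.0326). Within each genotype the male libraries lay above the female ones, but mutant female 3 at 4.69 scaled FPKM lay above all 3 wild type males. The differences within a genotype were 0.43 in mutants (adjusted p = 0.115) and 0.38 in wild type (adjusted p = 0.226), and neither was called. Without mutant female 3 the difference in mutants was called (adjusted p = 0.0140). The call over both genotypes was lost without any 1 of the 6 male or the 3 wild type female libraries (adjusted p 0.0543 to 0.0836), with FPKM as deposited and with no filter on low values.

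Spry1 and Spry2 gave log2 differences of 0.02 and -0.09 over both genotypes, and neither was called (adjusted p = 0.828 and 0.432). Etv5 gave 0.15 (adjusted p = 0.0971), and was called without mutant female 1 (adjusted p = 0.0461).

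Among the receptors, Fgfr2 was higher in males over both genotypes, by 0.37 (SE 0.10, adjusted p = 0.0307), with 0.29 in mutants (adjusted p = 0.216) and 0.44 in wild type (adjusted p = 0.121) not called. Its mutant groups overlapped, while wild type males lay above wild type females. The call was lost without any 1 of mutant male 1, mutant male 2, the 3 wild type males, wild type female 1 or wild type female 2 (adjusted p 0.0548 to 0.0800), with FPKM as deposited and with no filter. It was also lost when the GC and length adjustment was joined by a term for replicate number. Fgfr3 differed by 0.40 (adjusted p = 0.132) and Fgfr1 by 0.12 (adjusted p = 0.341), and without mutant female 3 Fgfr1 was called (adjusted p = 0.0279).

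Other settings added calls, all higher in males. With equal library sums, Spry4 was called in mutants (0.58, adjusted p = 0.0366), and Fgf10 (0.50, adjusted p = 0.0236) and Etv5 (0.25, adjusted p = 0.0325) over both genotypes. That scaling moved the median of all genes by 0.18 in mutants and 0.11 over both genotypes, and over all genes it gave 1702 higher and 230 lower in mutant males, against 553 and 489 with median-ratio scaling. Fitting only the groups compared added Fgfr2 and Spry4 in wild type. Quality weights added Fgfr2, Spry4 and Etv5 in wild type, Fgfr2 in mutants, and Fgfr3 and Etv5 over both genotypes.

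**Figure D4:**
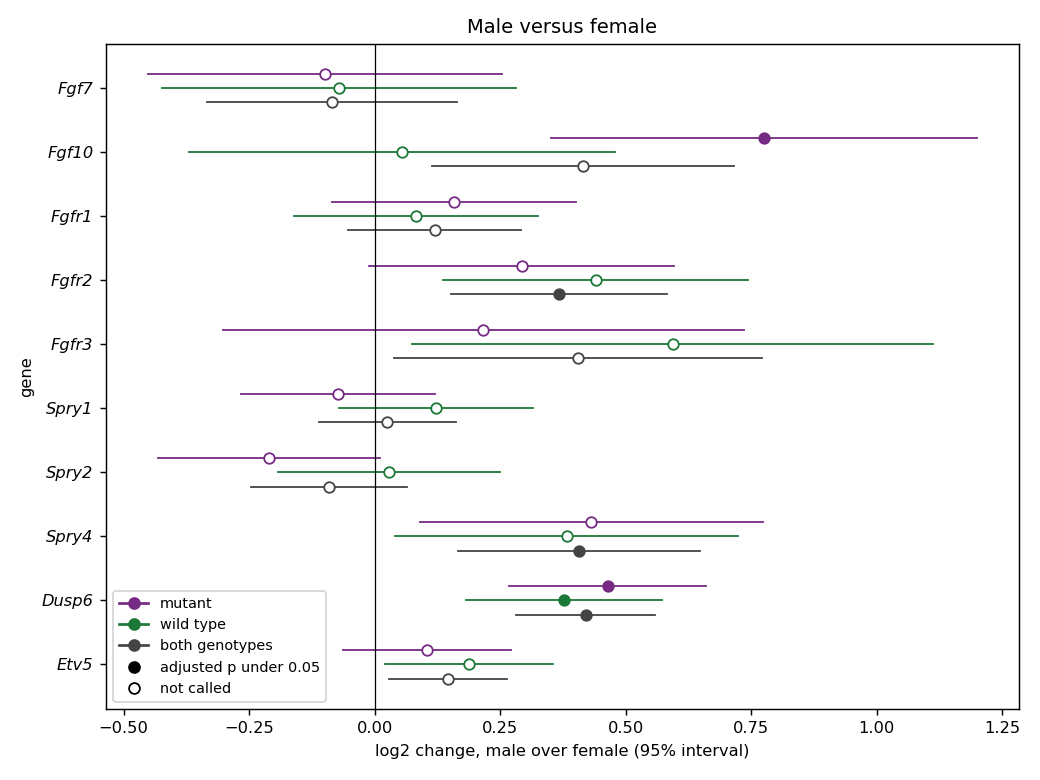
Log2 difference of each FGF gene, male over female, with its 95% interval in mutants, in wild type and over both genotypes, from the limma fit (filled points, adjusted p under 0.05). Dusp6 was called in all 3 comparisons, at 0.46, 0.38 and 0.42, while Fgf10 was called in mutants, at 0.78, with 0.05 in wild type.

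Fgf10 in mutants was higher in males, by 0.78 on the log2 scale (SE 0.19, adjusted p = 0.0360), where the 3 males at 3.42 to 4.28 lay above the 3 females at 1.67 to 2.698. In wild type the difference was 0.05 (adjusted p = 0.914) and the sexes overlapped. The test of the difference between these 2 values is the same as that between the mutant effects in males and females, and did not pass (0.72, adjusted p = 0.545). The call was lost without any 1 of the 3 mutant males, wild type male 1, mutant female 1, mutant female 3, wild type female 2 or wild type female 3 (adjusted p 0.0520 to 0.125), and under 5 other alternatives, the GC and length adjustment among them (0.62, adjusted p = 0.0727). Over the other alternatives the adjusted p ran from 0.00995 to 0.147. Fgf7 gave -0.10 in mutants and -0.07 in wild type (adjusted p = 0.742 and 0.853).

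The ratio of Fgf10 to Fgf7 within a library, chosen after the values were seen, does not depend on how libraries are scaled. It was 2.51, 2.07 and 2.21 in mutant males, against 1.11, 1.03 and 1.502 in wild type males. In mutant females it was 1.16, 1.17 and 0.951, against 0.924, 1.41 and 0.974 in wild type females. The 3 mutant males lay above all 9 other libraries, which overlapped each other across groups. The log2 difference was 0.91 between mutant and wild type males and 1.05 between mutant males and mutant females, each with an exact two-sided permutation p of 0.1, the smallest that 3 against 3 libraries allow (0.2 adjusted over 4 comparisons). Mutant and wild type females differed by 0.01 (exact p = 1), and wild type males and females by 0.15 (exact p = 0.5). Leaving out single libraries gave 0.81 to 1.08 and 0.96 to 1.12 for the first pair of differences. With 0.5 added to each value these became 0.75 and 0.88, and with the GC and length adjustment on those values 0.71 and 0.91.

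**Figure D5:**
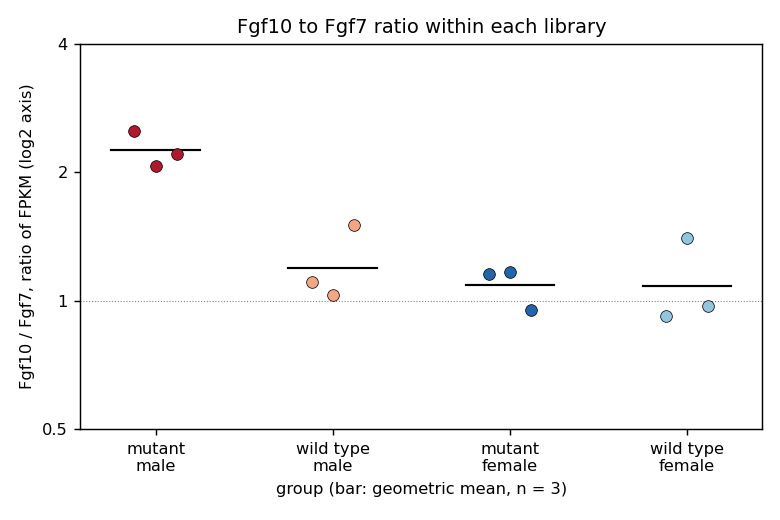
Ratio of Fgf10 to Fgf7 FPKM in each library (log2 axis) in mutant males, wild type males, mutant females and wild type females, with a bar for the geometric mean (n = 3). Mutant males sit between 2.07 and 2.51, above the other 9 libraries, which sit between 0.924 and 1.502.

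By GC content, the median log2 difference between the sexes ran from 0.09 in the lowest class to -0.05 in the highest over both genotypes. It ran from 0.14 to -0.07 in mutants, where Fgf10 was called, and from 0.03 to -0.02 in wild type. After the GC and length adjustment, Dusp6 (0.39, adjusted p = 0.00313), Spry4 (0.35, adjusted p = 0.0326) and Fgfr2 (0.34, adjusted p = 0.0442) were still called over both genotypes. The marker lists were run without that adjustment and with median-ratio scaling only. Of the 9 mesenchymal markers 3 were higher and 1 lower in males over both genotypes, and of the 9 epithelial markers 2 were higher and 1 lower. Among the remaining lists, 2 skeletal muscle markers and 1 neural marker were higher in males and 0 were lower. Of all tested genes, 13.5% were called in that comparison, with 7.50% higher in males. Within a genotype, 2 skeletal muscle markers were higher in males in wild type, while 1 was lower in mutants. Over all genes, 271 were higher and 171 lower in males in wild type, and 553 and 489 in mutants. The part of these markers was not tested, and female samples alone held vaginal tissue, so sex and the dissected parts cannot be told apart.

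Among the 45 further pathway genes, 7 were higher and 3 lower in males over both genotypes, 3 were higher in mutants and 3 in wild type, and 0 were lower within either genotype. The called shares were 22.2% over both genotypes and 6.67% in each genotype, against 13.5% of all genes over both genotypes, 7.49% in mutants and 3.18% in wild type. Etv4, a close relative of Etv5, averaged 6.86 ± 1.07 scaled FPKM in mutant males and 3.78 ± 0.477 in mutant females, and 5.85 ± 0.736 in wild type males and 2.94 ± 0.246 in wild type females (SD, n = 3). Its log2 difference, male over female, was 0.78 in mutants (adjusted p = 0.00618) and 0.88 in wild type (adjusted p = 0.00422). Both calls were kept without each library in turn, and the one in mutants was lost with only the groups compared in the fit (adjusted p = 0.0594). Fgf12, an intracellular family member that binds sodium channels, differed by 1.41 in mutants (adjusted p = 0.00329) and 1.31 in wild type (adjusted p = 0.00711). Both calls were kept under every alternative that tested it, while the filter at 5 FPKM left Fgf12 out. Etv4 and Fgf12 were singled out after their values were seen.

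The genes whose profiles over the 12 libraries were most like those of the more variable FGF genes were sought by root-mean-square distance between standardised log2 values, where 0 means the same profile. For Fgf7 these were Gyg (0.294) and Crlf3 (0.322). Gyg, the glycogen primer glycogenin, averaged 12.6 ± 0.650 scaled FPKM in mutant males and 17.0 ± 0.580 in wild type males, and 13.1 ± 1.10 in mutant females and 17.7 ± 1.92 in wild type females (SD, n = 3). For Fgf10 they were Plpp4 (0.383) and Elmo1 (0.410). Elmo1 averaged 3.92 ± 0.678 in mutant males and 3.23 ± 0.565 in wild type males, and 2.13 ± 0.443 in mutant females and 2.79 ± 0.362 in wild type females. For Fgfr2 they were Tns4 (0.401) and Dlg3 (0.423), and for Fgfr3 H2-T23 (0.412) and Proser2 (0.445).

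Genes that overlap the members on the genome were low. Fgf7, Fgf10, Fgfr1, Fgfr3 and Spry1 each overlapped 1 gene on the opposite strand, with at most 0.36 FPKM in any library, and Spry4 overlapped 2 gene models listed at 0. The libraries were strand-specific per the labels, and the strand setting of the FPKM estimate is not given in the sources used here.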

How the data were processed

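The authors sequenced ribosome-depleted total RNA as strand-specific single-end reads, per the labels. The deposited values are FPKM for 56495 genes, per the file headers, and the table had 0 columns from elsewhere. The submitters' processing notes name STAR 2.7.10a, Cufflinks 2.2.1, cutadapt 4.1, bedtools 2.30.0 and the builds mm39 and mm10. The annotation, masked genes and strand setting are not given in the sources used here. Only 2.74% of 51659 genes shared their end with GENCODE M21 on GRCm38, so positions are given as mm39, with starts of the table plus 1 because its gene lengths fit a count from 0.

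FPKM hold no read counts, so depth is known only in relative terms, from the steps that 1 read makes among low values, and counting intervals were not possible. Scaling used the median ratio over 11897 genes that reached 1 FPKM in all libraries (divisors 0.748 to 1.13). Tested genes reached 1 FPKM in 3 or more libraries, and entered as log2 of scaled FPKM plus 0.5, a scale that understates changes of low genes. The model in limma 3.58.1 (R 4.3.3) had a mean per group and an intensity trend, with two-sided tests and Benjamini-Hochberg adjustment over 13904 genes. Genes were called at an adjusted p under 0.05. The procedure was also run on simulated libraries with known changes and independent noise. Those did not copy the large share of called genes or the lower depth of mutant libraries, so they do not bear on the calls given here.

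The 6 planned comparisons set mutant against wild type in each sex and over both, compared those effects between the sexes, and set males against females in each genotype. Male versus female over both genotypes and the Fgf10 to Fgf7 ratio, tested by exact permutation in scipy 1.17.1, were added after the data were seen. GC content and transcript length came from GENCODE M21, and the adjustment for them was a smooth fit in mgcv 1.9.3, per library, on the 98.8% of tested genes that had both. The alternatives changed the pseudocount to 0.1 or 1, dropped the filter or raised it to 5 FPKM, took FPKM as deposited or scaled to equal library sums, restricted the fit to the groups compared, left out the intensity trend, weighted libraries by quality (statmod 1.5.0), added a replicate block, or left out a library.

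The 10 genes, the marker lists and the pathway lists were chosen with earlier results of these data known. Named genes were the 10 members, up to 12 pathway genes with the largest change among those called over both sexes, and the 2 genes most like each of 4 called members with the largest spread, leaving out unnamed gene models and pseudogenes. Xist and Ddx3y were given as checks of the sex labels. Hoxd13 was given as a HoxD gene, and its difference between genotypes is a result of these data and no check of the labels. Spry3 was listed and is not analysed here.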

Additional observations from a re-analysis of the deposited data

How the results depend on the processing

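The counts of called FGF genes moved with scaling, the GC and length adjustment, quality weights and the groups fitted. With FPKM as deposited, 1 of the 10 was called in males, 0 in females, 1 over both sexes, 0 between the sexes in wild type, 1 in mutants and 1 over both genotypes. Over all genes that setting called 1350 in males, 1666 in females, 3424 over both sexes, 254 between the sexes in wild type, 401 in mutants, 931 over both genotypes, and 1 for the difference between the mutant effects. The GC and length adjustment left 0 FGF genes in males, 1 in females, 2 over both sexes, 0 between the sexes in wild type and 1 in mutants, and 579, 751 and 2195 of all genes in males, females and over both sexes. Fgf7 over both sexes came to 0.0388 with it (adjusted p = 0.835) and to 0.0388 with the replicate block added (adjusted p = 0.830), against -0.48 without. Equal library sums gave 0 FGF genes between the sexes in wild type and 5 over both genotypes, and 1932 of all genes between the sexes in mutants. No filter gave 0 FGF genes between the sexes in wild type, 1 in mutants and 1 over both genotypes, with 657 of all genes in mutants and 9 for the difference between the mutant effects. A filter at 5 FPKM left 7 of the 10 FGF genes to be tested, without Fgf7, Fgf10 and Spry4, and 9510 genes in all. It gave 0 and 1 FGF genes between the sexes in wild type and in mutants, and 243 of all genes in wild type. A pseudocount of 0.1 called 1 gene for the difference between the mutant effects. Only the groups compared gave 3 FGF genes between the sexes in wild type and 0 in mutants, with 1247 and 215 of all genes, and 2360 of all genes in females. No intensity trend gave 0 FGF genes between the sexes in wild type. Array quality weights gave 5 FGF genes in males, 4 between the sexes in wild type and 5 over both genotypes, with 5991, 3997 and 3464 of all genes, and 1 gene for the difference between the mutant effects.

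Same-numbered libraries of different groups deviated together weakly if at all (18 pairs, r from -0.23 to 0.32, 3 of them over 0.1). The 36 other pairs ran from -0.27 to 0.23. With 3 libraries a group, such values cannot decide whether the numbers pair the samples, and the main fit held no replicate block. The replicate block called 5 FGF genes and 5770 of all genes over both sexes, 2 and 2857 in males, 4 and 3935 in females, 0 and 365 between the sexes in wild type, 2 and 963 in mutants, and 3 and 1826 over both genotypes. Together with the GC and length adjustment, the block called 0 FGF genes in males, 1 in females, 1 over both sexes, 0 between the sexes in wild type and 1 in mutants, and of all genes 489 in males, 655 in females, 2140 with the sexes combined, and 656 for sex in mutants. With both, Spry2 over both sexes (adjusted p = 0.0677) and Fgfr2 between the sexes over both genotypes (adjusted p = 0.0655) were not called, unlike with the GC and length adjustment alone, and the block alone added Spry1 in females (adjusted p = 0.0434).

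Leaving out each library gave 1 to 3 FGF genes and 1240 to 3948 of all genes in males, 2 to 6 and 2439 to 4112 in females, 4 to 6 and 4675 to 6364 over both sexes, and 0 and 0 to 1 for the difference between the mutant effects. Between the sexes it gave 0 to 1 and 160 to 990 in wild type, 1 to 3 and 433 to 1369 in mutants, and 1 to 4 and 1093 to 2726 over both genotypes. Over the settings other than leaving out libraries, 671 of 789 values of single genes kept their direction and side of the threshold. With the sign kept, 51 lost and 24 gained a call, while 41 uncalled values changed sign. A further 2 called values changed sign and lost their call, which were those of Fgf7 over both sexes with the GC and length adjustment, without and with the block. Mutant libraries were shallower, so low genes such as Fgf7 and Fgf10 rest on fewer reads there. The causes of these changes were not tested.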
